A study of Mus musculus with 9 samples.

Results

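Gene expression in dICSI-AOA blastocysts was compared with that in ICSI blastocysts across every gene whose FPKM averaged 1 or more in the 9 libraries of the series. FPKM is the number of sequenced fragments scaled to transcript length and library depth, and this minimum kept 4304 of 22564 genes. The comparison took 6 of the 9 libraries, 3 of each group, and the other 3 (ICSI-AOA) entered the statistical fit to help estimate the spread between libraries. All embryos were from C57BL/6 mice and were collected at day 3.5 after fertilization, and each library was a pool of blastocysts. In the ICSI group (libraries 2, 5 and 6) a normal sperm was injected into the oocyte (intracytoplasmic sperm injection) with no further treatment. In the dICSI-AOA group (libraries 1, 4 and 5) the injected sperm had lost much of its capacity to activate the oocyte, through separation of heads from tails and a warm incubation, and the oocytes were then exposed to ionomycin, a calcium ionophore, as artificial oocyte activation (AOA). The ICSI-AOA group (libraries 1, 4 and 5) had normal sperm and the same ionomycin treatment. The contrast therefore held the change of sperm and the ionomycin treatment at once, and the effects of these cannot be told apart in it.

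As background, a sperm activates the oocyte by releasing a phospholipase that produces inositol trisphosphate, which opens calcium channels of the endoplasmic reticulum and starts repeated calcium rises. Ionomycin carries calcium across membranes directly and gives a rise without that phospholipase. The blastocyst that forms days later has an outer trophectoderm, marked by Cdx2, Gata3, Eomes, Krt8 and Krt18, and an inner cell mass, marked by Pou5f1, Nanog and Sox2, from which the primitive endoderm with Gata6 and Sox17 separates.

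The deposited estimated counts were shallow. They held 128176 to 172307 fragments per ICSI library and 151833 to 163248 per dICSI-AOA library, and 6738 to 6982 genes had at least 1 fragment in these 6 libraries. Transcripts of the mitochondrial genome took 6.18% to 9.61% of the ICSI fragments, the highest in ICSI library 5, and 6.50% to 7.27% of the dICSI-AOA fragments. The 10436 genes without a single fragment in the 9 libraries included genes that nearly every cell uses. Hprt was listed at 0 throughout, Gapdh had 1 to 4 fragments and Actb 4 to 12 per library, so that a value of 0 in these files is given only as a listed 0.

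The label of the samples was checked against defining genes before any comparison. Pou5f1, Nanog, Sox2, Gata3, Eomes, Sox17, Tead4 and Dppa3 were listed at 0 in all 9 libraries. Cdx2 had 1 to 4 fragments per library, Gata6 1 to 5, Krt8 1 to 13 and Krt18 at most 3. The 25 trophectoderm markers together gave 33, 50 and 35 fragments in the ICSI libraries and 25, 30 and 25 in the dICSI-AOA libraries, and the 25 markers of the inner cell mass and epiblast gave 15, 7 and 6 against 5, 9 and 9. Of these lists 10 and 7 genes had any fragment. The 26 markers of the primitive endoderm gave 49, 66 and 67 fragments against 55, 45 and 58, and 20 genes of that list had any fragment. Markers of other cells that a pool could carry were as scarce, with 26 to 52 fragments per library for cumulus and granulosa cells, 20 to 58 for sperm and testis and at most 8 for the oocyte in the 6 libraries compared.

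Genes of the absorptive epithelium of the small intestine were listed instead with more fragments in every library. A list of 86 such genes was written after the values had been seen, and 85 had at least 1 fragment, Ugt2b5 being listed at 0. Of all 22564 genes 12128 had at least 1 fragment. Since the list was written with the values known, its share is a description and not a test. The sum of the list was 1100, 1389 and 1122 fragments in the ICSI libraries, 1069, 959 and 1166 in the ICSI-AOA libraries and 1042, 871 and 1044 in the dICSI-AOA libraries. Alpi, the intestinal alkaline phosphatase, had 2 to 16 fragments in each of the 9 libraries and Vil1, villin of the brush border, had 2 to 12. Lct, lactase, had up to 7. Alb of liver, Ins2 of pancreatic islets, Sftpc of lung, Umod of kidney and Cd3e of T cells were listed at 0 throughout. The defining genes of the label thus had few or no listed fragments in all 3 groups alike, and the groups below are called by their labels only. Hprt was also listed at 0, so these values cannot show that the marker transcripts were absent. This holds for the genes of liver, islets, lung, kidney and T cells as well. The origin of these transcripts was not tested.

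**Figure D1:**
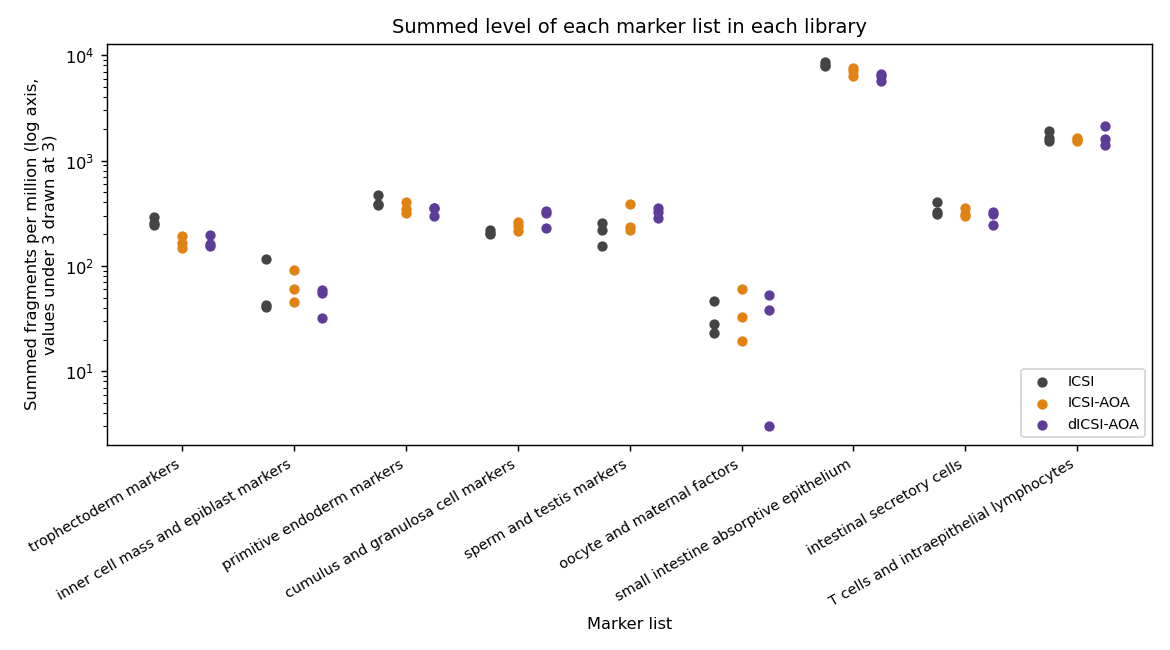
Summed level of 9 marker lists (horizontal axis) in CPM, the fragments scaled to the total of the library (vertical axis, log scale), in each of the 9 libraries (points, colored by group). The small intestine list lies above the lists for blastocyst lineages and gamete-associated cells in every library. Its 3 dICSI-AOA points (5737 to 6660) lie below its 3 ICSI points (7916 to 8582). Its 3 ICSI-AOA points (6377 to 7542) also lie below the ICSI points. The small intestine, secretory and T cell lists were written after the values were seen, so the order of their points is a description and not a test.

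A gene was called where its fold change exceeded 1.3 and its unadjusted p was under 0.05, the thresholds of the study, here in edgeR's quasi-likelihood test on the fragments of all 9 libraries. This called 284 of 4304 genes (6.6%), of which 133 (3.09%) stood higher in dICSI-AOA and 151 (3.51%) stood lower. With another scaling in the same test it became 127 higher and 154 lower (RLE factors), 176 and 123 (total fragments alone) and 510 and 45 (the authors' own factors). DESeq2, which also changes the test, called 48 higher and 85 lower. An unadjusted p under 0.05 alone was reached by 286 genes, close to the count of calls. If no gene had changed, 215.2 of the 4304 would be expected to reach it. After Benjamini-Hochberg adjustment over the 4304 genes, 1 gene (0.0232%) stayed under 0.05. The scaled levels of the 3 dICSI-AOA libraries lay wholly above or below those of the 3 ICSI libraries in 496 genes (11.5%), 236 of them above (5.48%) and 260 below (6.04%), and 189 of these were called, 90 higher and 99 lower. The labels describe the libraries as independent replicates. In pooled embryos, fewer cells of a type and less RNA per cell cannot be told apart.

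The depth set which differences could be seen. Among the 490 genes with fewer than 10 fragments over the 6 libraries the median standard error of the log2 fold change was 1.40 and 3.06% were called. It was 0.50 for the 1368 genes with 30 to 99 fragments, of which 6.73% were called, and 0.21 for the 528 genes with at least 300, of which 11.4% were called. Of the 284 calls 59 rested on fewer than 30 fragments, and in 16 of the 284 one of the groups had no fragment at all.

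**Figure D2:**
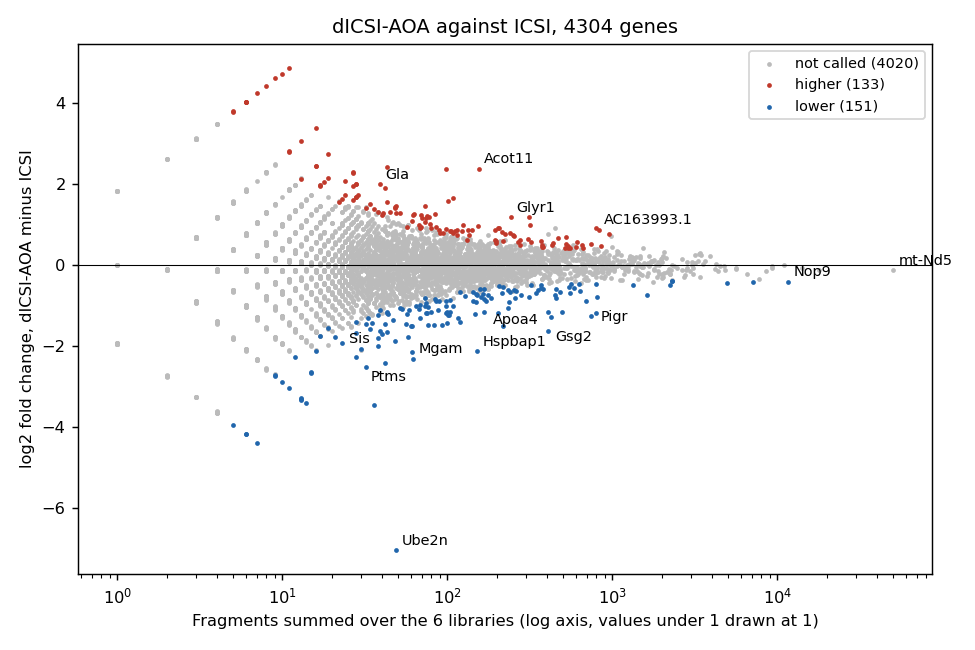
Log2 fold change of dICSI-AOA against ICSI (vertical axis) by the fragments summed over the 6 libraries (horizontal axis, log scale) for 4304 genes, with 133 genes called higher in red, 151 called lower in blue and 4020 not called in grey. The spread narrows to the right, and the most abundant gene, mt-Nd5, lies at -0.12.

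The genes called lower with the smallest p included several of the intestinal genes. Sis, another intestinal gene called lower, was not among those with the smallest p. The promoters of Apoa4, Sis and Mgam, and of Gsg2, the gene that passed the adjustment, are shown. They are RefSeq sequence of build GRCm38.p6, from 250 bases before to 50 after the start of the gene, 5′ to 3′ on the strand of the gene, and all 4 genes were matched, Gsg2 under its newer symbol Haspin. For Apoa4 the RefSeq start lies downstream of the start of the gene model whose coordinates are given with its values, so that its window also holds bases inside that model. Capitals mark matches, on either strand, to TATAAA (the TATA box), TTTATNG (a caudal-type homeobox element), GTTAAT (part of an HNF1 element) or CAAAGTC (part of an HNF4 element), and the first and second of these may overlap.
Apoa4, chr9:46240594-46240893, plus strand: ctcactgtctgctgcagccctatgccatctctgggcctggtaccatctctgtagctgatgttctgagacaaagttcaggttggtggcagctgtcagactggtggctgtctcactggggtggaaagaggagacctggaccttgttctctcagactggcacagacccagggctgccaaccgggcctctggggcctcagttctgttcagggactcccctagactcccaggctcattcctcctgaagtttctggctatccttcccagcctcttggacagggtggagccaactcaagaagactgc
Sis, chr3:72967814-72968113, minus strand: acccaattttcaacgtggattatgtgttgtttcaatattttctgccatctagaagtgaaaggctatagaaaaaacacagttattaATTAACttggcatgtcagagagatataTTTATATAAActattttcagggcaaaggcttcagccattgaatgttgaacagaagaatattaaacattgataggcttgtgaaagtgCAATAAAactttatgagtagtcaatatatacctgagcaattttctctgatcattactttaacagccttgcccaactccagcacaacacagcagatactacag
Mgam, chr6:40628581-40628880, plus strand: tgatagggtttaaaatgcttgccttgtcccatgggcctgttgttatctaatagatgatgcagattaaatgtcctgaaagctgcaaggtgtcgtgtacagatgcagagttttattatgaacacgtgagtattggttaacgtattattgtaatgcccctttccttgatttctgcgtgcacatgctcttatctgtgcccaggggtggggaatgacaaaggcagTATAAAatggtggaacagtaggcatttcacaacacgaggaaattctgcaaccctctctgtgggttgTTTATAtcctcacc
Gsg2, chr11:73138245-73138544, minus strand: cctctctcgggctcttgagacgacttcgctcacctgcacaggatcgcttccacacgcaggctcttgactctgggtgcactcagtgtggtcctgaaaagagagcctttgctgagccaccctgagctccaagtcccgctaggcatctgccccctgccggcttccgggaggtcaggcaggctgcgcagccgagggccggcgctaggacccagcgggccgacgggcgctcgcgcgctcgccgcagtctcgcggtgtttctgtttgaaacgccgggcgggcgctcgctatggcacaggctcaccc

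TATAAA matched in 2 places in the Sis window and in 2 in the Mgam window, and TTTATNG and GTTAAT matched in 1 place each in the Sis window. The Apoa4 and Gsg2 windows held none of the 4 motifs. Among all 27025 windows of this length, 14.2% held TATAAA, 11.3% TTTATNG, 7.20% GTTAAT and 4.36% CAAAGTC. A match is a run of letters, not a bound site.

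Gsg2 (ENSMUSG00000050107, chr11:73135485-73138294 of GRCm38) encodes haspin, a kinase that marks histones at the centromere in mitosis. It had 96, 91 and 112 fragments in ICSI libraries 2, 5 and 6 and 52, 19 and 38 in dICSI-AOA libraries 1, 4 and 5, so that each dICSI-AOA library lay below each ICSI library. The log2 fold change was -1.62 (SE 0.26, edgeR adjusted p = 0.00639). The edgeR adjusted p rose to 0.143 when dICSI-AOA library 4 was left out, to 0.204 when dICSI-AOA library 5 was, to 0.304 with no trend in the dispersion, to 0.0717 with the authors' factors and to 0.0530 at a mean of at least 10 fragments, and with limma it was 0.407 and 0.434 at the pseudocounts 1 and 0.1, while the gene kept its call by fold and unadjusted p in each of these. The ICSI-AOA libraries had 90, 60 and 85. The gene lies inside the body of Itgae, an integrin of lymphocytes in epithelia, on the other strand, without sharing an exon with it, and Itgae itself had 17, 18 and 13 against 20, 17 and 12 (log2 fold change -0.11, SE 0.34).

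Of the 47 small intestine genes that passed the FPKM minimum, 16 were called lower and 1 higher in dICSI-AOA, against 3.51% and 3.09% of all genes tested. The median log2 fold change of the 47 was -0.72, against -0.01 for all 4304 genes, and 38 of the 47 had an estimate below 0. The list was made with these values known, so the counts are a description. With the authors' own scaling, which shifted the median of all genes to 0.36, 8 of the list were called lower and 4 higher with a median of -0.35. With limma on log2(FPKM + 1) 2 were called lower and 4 higher, and the count called lower was 9 without ICSI replicate 6.

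Apoa4 (ENSMUSG00000032080, chr9:46240696-46243459), an apolipoprotein that enterocytes secrete with dietary fat, had 49, 125 and 118 fragments in the ICSI libraries and 48, 49 and 34 in the dICSI-AOA libraries. On the scaled level the groups did not overlap, although ICSI library 2 stood only slightly above the highest dICSI-AOA library. Its log2 fold change was -1.27 (SE 0.26, edgeR adjusted p = 0.0762), and 634 bases of its exons overlap Gm47528 on the other strand. In the ICSI-AOA libraries it had 62, 66 and 61 fragments.

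Pigr (ENSMUSG00000026417, chr1:130826684-130852249), the receptor that carries immunoglobulin across the epithelium, had 157, 238 and 116 fragments against 120, 60 and 55. Scaled for depth, the dICSI-AOA libraries were all below the ICSI libraries, with dICSI-AOA library 1 nearest to them. The log2 fold change was -1.25 (SE 0.31, edgeR adjusted p = 0.168). In the ICSI-AOA libraries Pigr had 71, 107 and 209 fragments.

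A pair of disaccharidases of the brush border was called lower as well. Mgam, maltase-glucoamylase (ENSMUSG00000068587, chr6:40628831-40769123), had 20, 23 and 8 fragments against 4, 4 and 3, which gave a log2 fold change of -2.31 (SE 0.50, edgeR adjusted p = 0.0982). Sis, sucrase-isomaltase (ENSMUSG00000027790, chr3:72888557-72967863), had 15, 11 and 4 against 1, 4 and 3, which gave -2.01 on that scale (SE 0.65, edgeR adjusted p = 0.448). In both genes ICSI library 6 came nearest to the dICSI-AOA libraries, and in Sis it was almost level with the highest of them. Sis was no longer called without ICSI replicate 2. In the ICSI-AOA libraries Mgam had 9, 6 and 11 fragments and Sis 3, 4 and 9.

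The genes of lipid uptake and export called lower also included Fabp1, a fatty acid binding protein (3, 6 and 14 fragments against 1, 0 and 4), Apob, the core protein of chylomicrons (19, 32 and 19 against 15, 11 and 8), Mttp, which loads lipid onto Apob (8, 10 and 11 against 6, 6 and 2), and Rbp2, a carrier of retinol (18, 21 and 25 against 10, 15 and 10). The log2 fold changes of Fabp1, Apob and Mttp were -2.27 (SE 0.80), -1.16 (SE 0.37) and -1.17 (SE 0.56). Fabp1 overlapped between the groups and the other 3 did not. Mttp lost its call in 10 of 15 alternative settings, among them each ICSI library left out, and Rbp2 in 7 of 17. Fabp1 lost it without ICSI replicate 6, and Apob with the authors' factors and with limma at either pseudocount. In ICSI-AOA, Fabp1 had 2, 3 and 4 fragments and Apob 8, 14 and 12. Mttp had 2, 1 and 4 there and Rbp2 22, 5 and 6.

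Epithelial structure and transport genes called lower were Krt20, a keratin of mature enterocytes (7, 15 and 22 fragments against 8, 3 and 6), Krt8, also a trophectoderm keratin (8, 9 and 13 against 2, 4 and 4), Muc13, a transmembrane mucin (9, 6 and 14 against 5, 2 and 2), Slc5a1, the glucose cotransporter (13, 16 and 11 against 10, 3 and 3), and Espn, an actin bundler of microvilli (84, 154 and 72 against 87, 59 and 88). Ada, adenosine deaminase, with 18, 16 and 18 against 13, 8 and 11, and 2210404O07Rik, named Smim24 in RefSeq, with 23, 26 and 49 against 20, 24 and 19, were the others beside Cdx1, an intestinal homeobox factor with 5, 5 and 3 against 2, 0 and 1. Of these genes Espn overlapped between the groups. Krt20, Muc13 and 2210404O07Rik were not called without ICSI replicate 6, 2210404O07Rik and Slc5a1 not without dICSI-AOA replicate 5, Slc5a1 and Espn not without dICSI-AOA replicate 4, and Espn not without ICSI replicate 5. Cdx1 lost its call in 8 of 15 alternative settings and Ada in 9 of 17. Ada had a log2 fold change of -0.85 (SE 0.39), which was 0.00744 with limma on log2(FPKM + 1).

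The exception was Reg3d, a secreted lectin of the Reg family, called higher on 0, 1 and 0 fragments against 3, 3 and 4. Several abundant or typical enterocyte genes were not called. Apoa1 had a log2 fold change of -0.52 (SE 0.31), Fabp2 of -0.80 (SE 0.53), Anpep of -0.42 (SE 0.40), Vil1 of -0.36 (SE 0.53) and Alpi of -0.22 (SE 0.66), and the 95% interval of each included 0. Fam151a and Pdzk1 had the most fragments of the 47 genes, 1329 and 1027 over the 6 libraries. Neither was called, and their estimates lay above 0, at 0.16 (SE 0.18) and 0.21 (SE 0.19), whereas 38 of the 47 lay below 0.

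**Figure D3:**
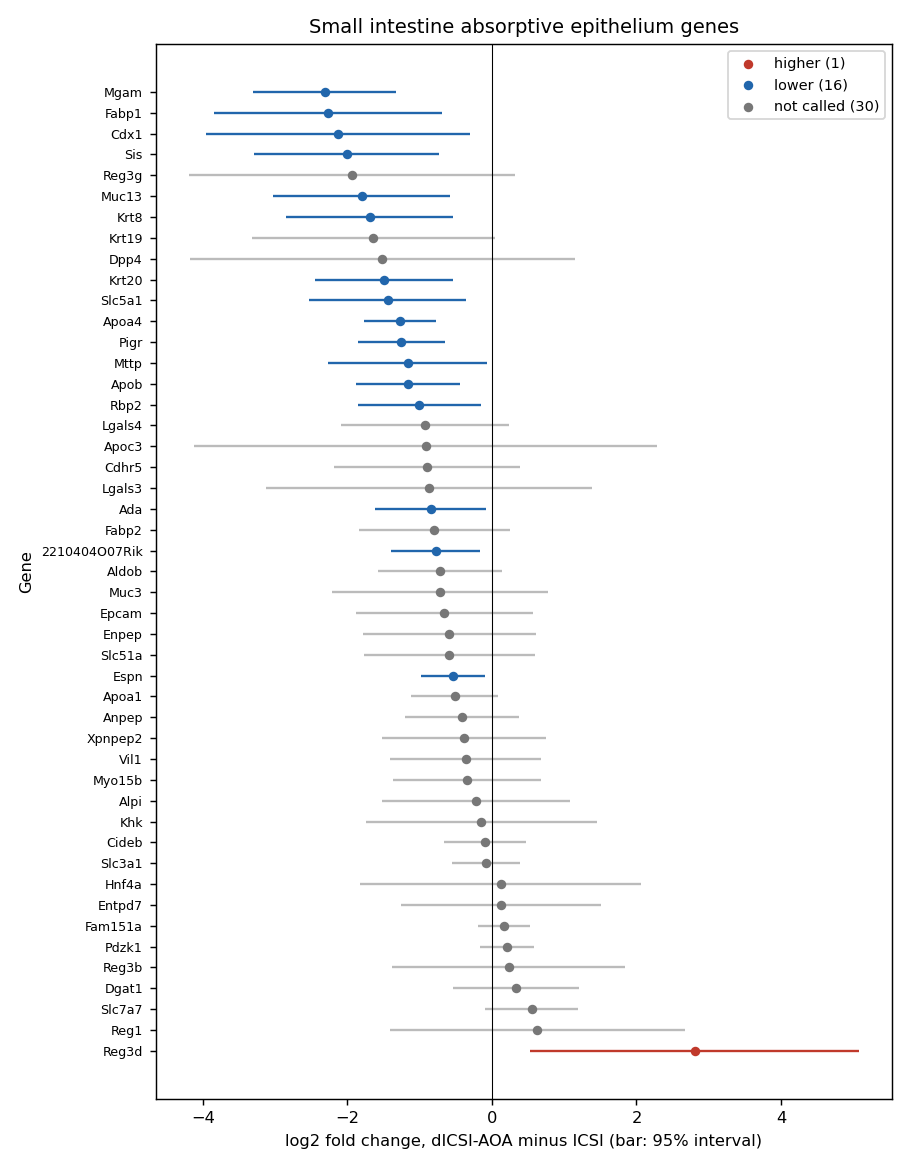
Log2 fold change of dICSI-AOA against ICSI with its 95% interval for the 47 small intestine genes tested, ordered by estimate, with 16 called lower in blue, 1 called higher in red and 30 not called in grey. Estimates below 0 were found for 38 of the 47, and most intervals are wide.

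Lists of other cells in intestinal tissue and of the interferon response were also written after the values were seen. Of 11 tested genes of secretory cells none was called (median -0.63). Of 6 tested genes of T cells and intraepithelial lymphocytes 1 was called lower (16.7%, against 3.51% of all genes). This was Cd27, a receptor of the TNF family, with 14, 18 and 13 fragments against 7, 10 and 11. Its call was lost in 12 of 17 alternative settings, among them DESeq2, total fragments and 5 of the 6 libraries left out. Of 14 tested interferon response genes 5 were called lower (35.7%) and none higher (median -0.11), where 3.51% of all genes were lower.

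I830012O16Rik, which the gene name table gives as Ifit3b of the interferon-induced tetratricopeptide family, led the interferon genes. It had 19, 88 and 50 fragments against 21, 17 and 22, with ICSI library 5 far above all others and ICSI library 2 close to the dICSI-AOA libraries. Its log2 fold change was -1.49 (SE 0.33, adjusted p = 0.0982). The other 4 were Ifi27l2b (15, 16 and 35 against 19, 7 and 6), Irf9, part of the complex that carries the interferon signal to the nucleus (25, 34 and 47 against 32, 13 and 26), Oasl1 (11, 9 and 19 against 10, 4 and 6) and Ifi27 (3, 9 and 8 against 3, 3 and 2). Among these 5 genes the groups were apart in I830012O16Rik and Ifi27 only, and the calls of the other 4 were lost without ICSI replicate 6, where Ifi27l2b, Irf9 and Oasl1 had their highest value. Over all alternative settings Oasl1 lost its call in 12 of 17, Ifi27 in 11 of 16, Irf9 in 7 of 17 and Ifi27l2b in 6 of 17. I830012O16Rik lost it in 2 of 17, both with limma.

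The remaining genes called lower, chosen by smallest p among those with at least 30 fragments and no overlap between the groups, had varied functions. Hspbap1, a partner of a small heat shock protein, had 30, 54 and 37 fragments against 0, 12 and 18 (log2 fold change -2.13, SE 0.48), and its exons overlap Gm26838 on the other strand. Ptms, parathymosin, had 10, 11 and 14 against 3, 2 and 2 (-2.41, SE 0.54). All 3 dICSI-AOA values lay under all ICSI values in both genes.

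Scn3b, an auxiliary sodium channel subunit, had 56, 40 and 57 fragments against 19, 28 and 35 (log2 fold change -1.06, SE 0.27). Plec, the cytoskeletal linker plectin, had 24, 33 and 24 against 14, 10 and 12 (-1.30, SE 0.34). Lias, the lipoic acid synthase of mitochondria, had 15, 38 and 14 against 11, 7 and 8 (-1.47, SE 0.40). In Lias a single library, ICSI 5, was far above the rest, whereas in Scn3b and Plec no single library stood out.

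Gm7008, which overlaps Ifrd1, had 103, 188 and 143 fragments against 80, 107 and 70 (log2 fold change -0.87, SE 0.24). E430018J23Rik had 23, 14 and 18 against 10, 5 and 7 (-1.47, SE 0.42), and Fndc9, inside the body of Cyfip2 on the other strand, had 39, 33 and 40 against 29, 7 and 20 (-1.16, SE 0.33). The edgeR adjusted p of these 3 genes was 0.263, 0.327 and 0.327 in this order.

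None of the genes called higher by the same choice passed the adjustment, and besides the lysosomal Sgsh and Gla and the mitochondrial Mrps14, described with their lists below, none of them was in a list. AC163993.1 (ENSMUSG00000095556), which was not matched to the reference annotation, had 77, 101 and 96 fragments in ICSI and 148, 187 and 220 in dICSI-AOA. It had the smallest p among the genes called higher, and its log2 fold change was 0.88 (SE 0.19, edgeR adjusted p = 0.0982). Its ICSI-AOA libraries, with 113, 102 and 99, were near the ICSI libraries.

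Gm5148, which shares 396 exon bases with Rps23-ps1 on the other strand, had 31, 32 and 26 fragments against 46, 106 and 73 (log2 fold change 1.20, SE 0.29). Glyr1, a nucleosome-binding factor (chr16:5013909-5049863), had 22, 20 and 27 against 32, 76 and 65 (1.18, SE 0.30). In both genes dICSI-AOA library 1 lay only a little above the ICSI libraries, and libraries 4 and 5 well above.

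Tmem189, an enzyme of plasmalogen synthesis whose exons share 312 bases with Cebpb, had 56, 67 and 65 fragments against 118, 106 and 114 (log2 fold change 0.70, SE 0.20). Fam69a, which shares 953 exon bases with the ribosomal protein gene Rpl5, had 91, 100 and 139 against 176, 210 and 236 (0.76, SE 0.21). Rpl5 itself had 9 to 21 fragments in each of the 6 libraries. The libraries of each group were close together in Tmem189 and more spread in Fam69a.

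Syn1, a protein of synaptic vesicles, had 7, 9 and 7 fragments in ICSI and 22, 21 and 18 in dICSI-AOA (log2 fold change 1.25, SE 0.36), and the ICSI-AOA libraries, at 22, 25 and 23, were at the dICSI-AOA level. Lenep, first described in lens epithelium, had 17, 22 and 27 against 42, 52 and 43 (0.91, SE 0.26), with ICSI-AOA at 32, 38 and 42. Strc, stereocilin of the inner ear, had 14, 14 and 16 against 28, 27 and 35 (0.88, SE 0.30). In these 3 genes the ICSI and dICSI-AOA libraries did not overlap.

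Syce2, of the synaptonemal complex, had 1, 3 and 4 fragments against 14, 12 and 8 (log2 fold change 1.90, SE 0.56). Tgm4, a transglutaminase that overlaps Zdhhc3, had 56, 50 and 65 against 79, 95 and 127 (0.66, SE 0.22). The call of Tgm4 was lost without dICSI-AOA replicate 5, its highest library.

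**Figure D4:**
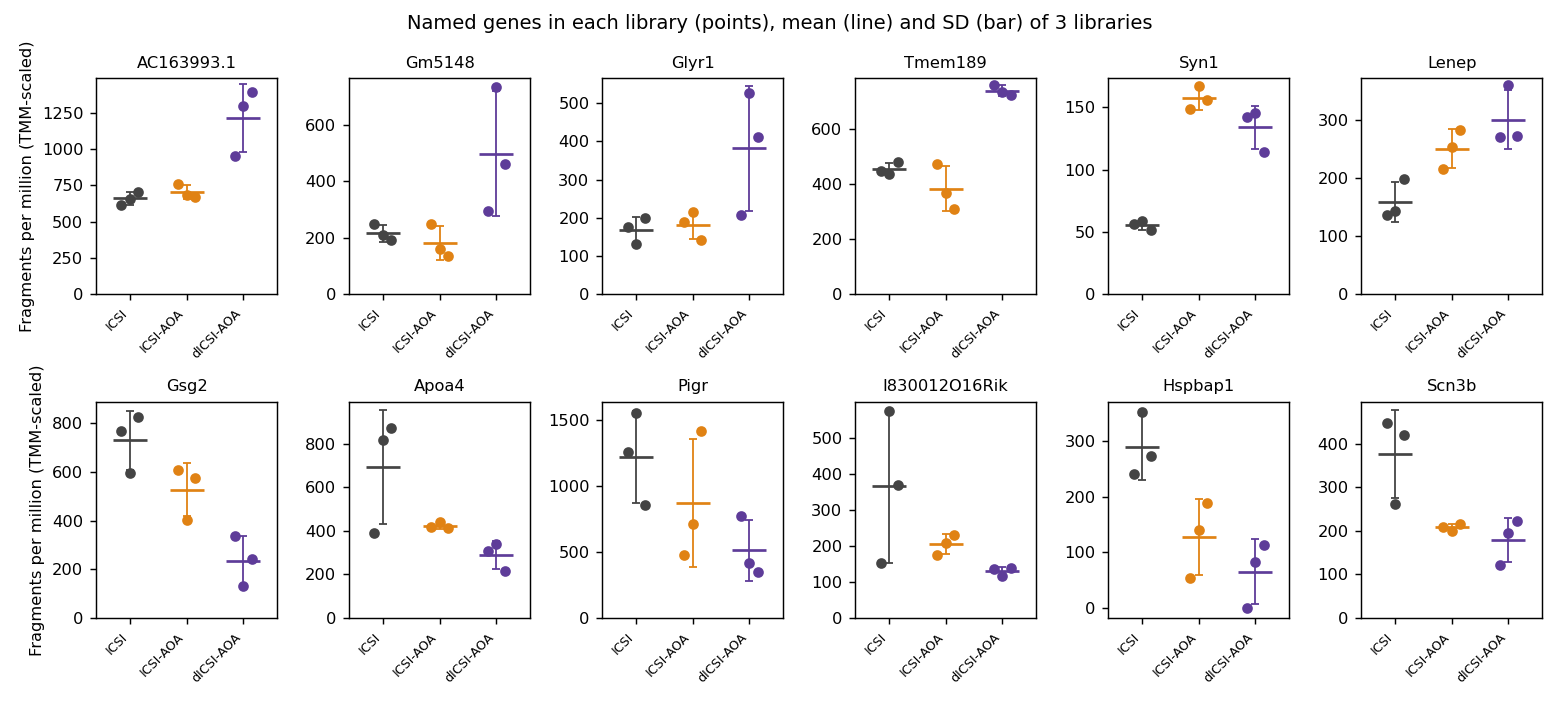
TMM-scaled level in CPM (vertical axis, from 0) of 6 genes called higher (top) and 6 called lower (bottom) in each library of the ICSI, ICSI-AOA and dICSI-AOA groups (points), with the mean (line) and SD (bar) of 3 libraries. In each panel the 3 dICSI-AOA points lie all above or all below the 3 ICSI points, as the choice of these genes required, and in Syn1 the ICSI-AOA points lie with dICSI-AOA.

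Of 24 tested genes of calcium stores, pumps and calmodulin kinases 2 were called lower (8.33%, against 3.51% of all genes) and none higher (median -0.06). Calr, the calcium-binding chaperone calreticulin, had 5, 7 and 25 fragments against 6, 4 and 1, and was not called without ICSI replicate 6 or without dICSI-AOA replicate 5. Ccdc109b, which belongs to the calcium uniporter complex of mitochondria, had 2, 2 and 3 fragments against 0 in each dICSI-AOA library, at least 2.58-fold lower when 3 fragments over the group are set as the floor.

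Of 26 tested phosphoinositide and inositol phosphate enzymes 2 were called higher and 2 lower (7.69% each, against 3.09% and 3.51% of all genes), with a median of 0.14. Pip5k1c, which makes the substrate of phospholipase C, had 0, 3 and 3 fragments against 11, 6 and 5, and Tmem55b, a lysosomal phosphatase of these lipids, had 93, 72 and 121 against 195, 116 and 150. Plcb3, a phospholipase C, had 8, 9 and 6 against 3, 5 and 2, and Dgke, a diacylglycerol kinase, 13, 19 and 33 against 12, 18 and 9. Tmem55b and Dgke overlapped between the groups, and each of these 4 calls was lost without dICSI-AOA replicate 1.

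Of 28 tested lysosomal genes 4 were called higher (14.3%) and 3 lower (10.7%), against 3.09% and 3.51% of all genes, with a median of 0.31. The higher ones were Sgsh, which removes sulfate from heparan sulfate (18, 34 and 21 fragments against 49, 42 and 51), Gla, alpha-galactosidase A (0, 3 and 4 against 13, 7 and 12), Tmem55b and Acp2, the lysosomal acid phosphatase (log2 fold change 0.51, SE 0.24). The lower ones were Gnptg, a subunit of the enzyme that tags hydrolases for the lysosome (37, 42 and 28 against 19, 21 and 24), Ctsb, cathepsin B (9, 29 and 13 against 4, 12 and 8), and Gusb, beta-glucuronidase (-0.77, SE 0.32). Sgsh shares 955 exon bases with Card14, and Ctsb shares 774 with Fdft1, on the other strand. Hydrolases thus stood on both sides of the comparison.

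Of 18 tested mitotic kinases and spindle genes 2 were lower (11.1%, against 3.51% of all genes), Gsg2 and Sgol1, the protector of centromeric cohesin (17, 19 and 18 fragments against 6, 14 and 12), with a median of -0.23. Sgol1 lost its call in 8 of 16 alternative settings. Of 28 tested cyclins, CDKs and replication genes Cdk4, the kinase of the G1 phase, was lower with 364, 427 and 451 against 426, 265 and 297 (log2 fold change -0.48, SE 0.18), and 641 of its exon bases overlap Tspan31. This 1 call is 3.57% of the list, and it was lost in 7 of 17 alternative settings, with an estimate of -0.084 under the authors' factors. Of 28 tested DNA damage genes 1 was called lower (3.57%, against 3.51% of all genes) and none higher (median 0.13).

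Of 40 tested chromatin and DNA methylation regulators Nsd1 was called higher (50, 62 and 55 fragments against 100, 77 and 94) and Whsc1l1, a related histone methyltransferase, lower (34, 37 and 42 against 26, 20 and 25), with a median of -0.12. Each direction is 2.50% of the list, against 3.09% and 3.51% of all genes. The groups were apart in both genes. Of 15 tested imprinted genes 1 was called higher (6.67%, against 3.09% of all genes), with a median of -0.05. This was H13, a signal peptide peptidase, with 2, 1 and 3 fragments against 3, 11 and 9. Its groups overlapped, and it lost its call in 7 of 15 alternative settings.

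In mitochondria the encoded and the imported components gave single calls. Of 10 tested transcripts of the mitochondrial genome 9 had an estimate below 0 (median -0.32). Only mt-Nd4, a subunit of complex I, was called lower (10% of the list, against 3.51% of all genes). It had 665, 1430 and 674 fragments against 829, 699 and 683. ICSI library 5, which had the highest mitochondrial share, stood alone there, the call was lost without it, and the estimate was 0.00121 with limma on log2(FPKM + 1). Of 29 tested nuclear respiratory chain genes 1 was called lower (3.45%, against 3.51% of all genes). This was Atp5a1, of the ATP synthase, on 7, 4 and 7 fragments against 3, 1 and 1. It lost its call in 8 of 15 alternative settings.

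Of 28 tested genes of the mitochondrial ribosome and translation 2 were higher (7.14%, against 3.09% of all genes) and 1 lower (3.57%, against 3.51%), with a median of 0.23. Mrps14, of the small subunit, had 3, 8 and 7 fragments against 21, 11 and 23 (log2 fold change 1.45, SE 0.46). Mrps34, of the same subunit, had none in ICSI and 2, 2 and 1 in dICSI-AOA, at least 1.51-fold higher over the same floor. It shares 1309 exon bases with the abundant Mapk8ip3 and lost its call in 6 of 15 alternative settings. Mrpl48, of the large subunit, was lower with 85, 147 and 103 against 93, 83 and 72 (-0.56, SE 0.20), and shares 708 exon bases with Rab6a.

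Of 19 tested ribosome biogenesis genes Emg1, an rRNA methyltransferase, was called higher (45, 60 and 44 fragments against 71, 69 and 86) and Nop9 lower (1815, 2585 and 1983 against 1897, 1625 and 1779), each 5.26% of the list against 3.09% and 3.51% of all genes. Emg1 lost its call in 8 of 17 alternative settings. Nop9 lost it in 6, namely total fragments, the authors' factors, limma at either pseudocount, no trend in the dispersion and without ICSI replicate 5, its highest library. Of 20 tested genes of lipid and cholesterol metabolism 2 were higher (10%, against 3.09%) and 3 lower (15%, against 3.51%), with a median of -0.03. Besides Apob and Mttp these were Cyp51, of sterol synthesis, lower with 51, 74 and 55 against 43, 42 and 56, Elovl1, a fatty acid elongase, higher on 1, 1 and 0 against 6, 3 and 2, and Acot11, a thioesterase, higher with 3, 7 and 13 against 3, 79 and 50. In Acot11 dICSI-AOA library 1 stood with the ICSI libraries. Cyp51 lost its call in 11 of 17 alternative settings and Elovl1 in 7 of 15.

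Of 29 tested heat shock and unfolded protein genes 1 was called lower (3.45%, against 3.51% of all genes). This was Hspa8, the constitutive chaperone, on 1, 5 and 2 fragments against 0, 1 and 0. It lost its call in 6 of 15 alternative settings. Of 17 tested antioxidant and glutathione enzymes 1 was called lower (5.88%, against 3.51% of all genes). This was Gpx7, a peroxidase of the endoplasmic reticulum, with 19, 41 and 25 against 25, 8 and 2. There dICSI-AOA library 1 lay among the ICSI libraries. None of 11 tested apoptosis genes and none of 11 tested glycolysis genes was called (medians -0.14 and -0.50). Among the markers of embryo and gamete cells, Krt8 was lower of 5 tested trophectoderm genes (20%, against 3.51% of all genes). Tssk6, a kinase of spermatids, was higher of 5 tested sperm and testis genes (20%, against 3.09% of all genes), with 3, 8 and 6 against 11, 13 and 21. None of 2 inner cell mass, 6 primitive endoderm, 1 cumulus and 1 oocyte gene was called.

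**Figure D5:**
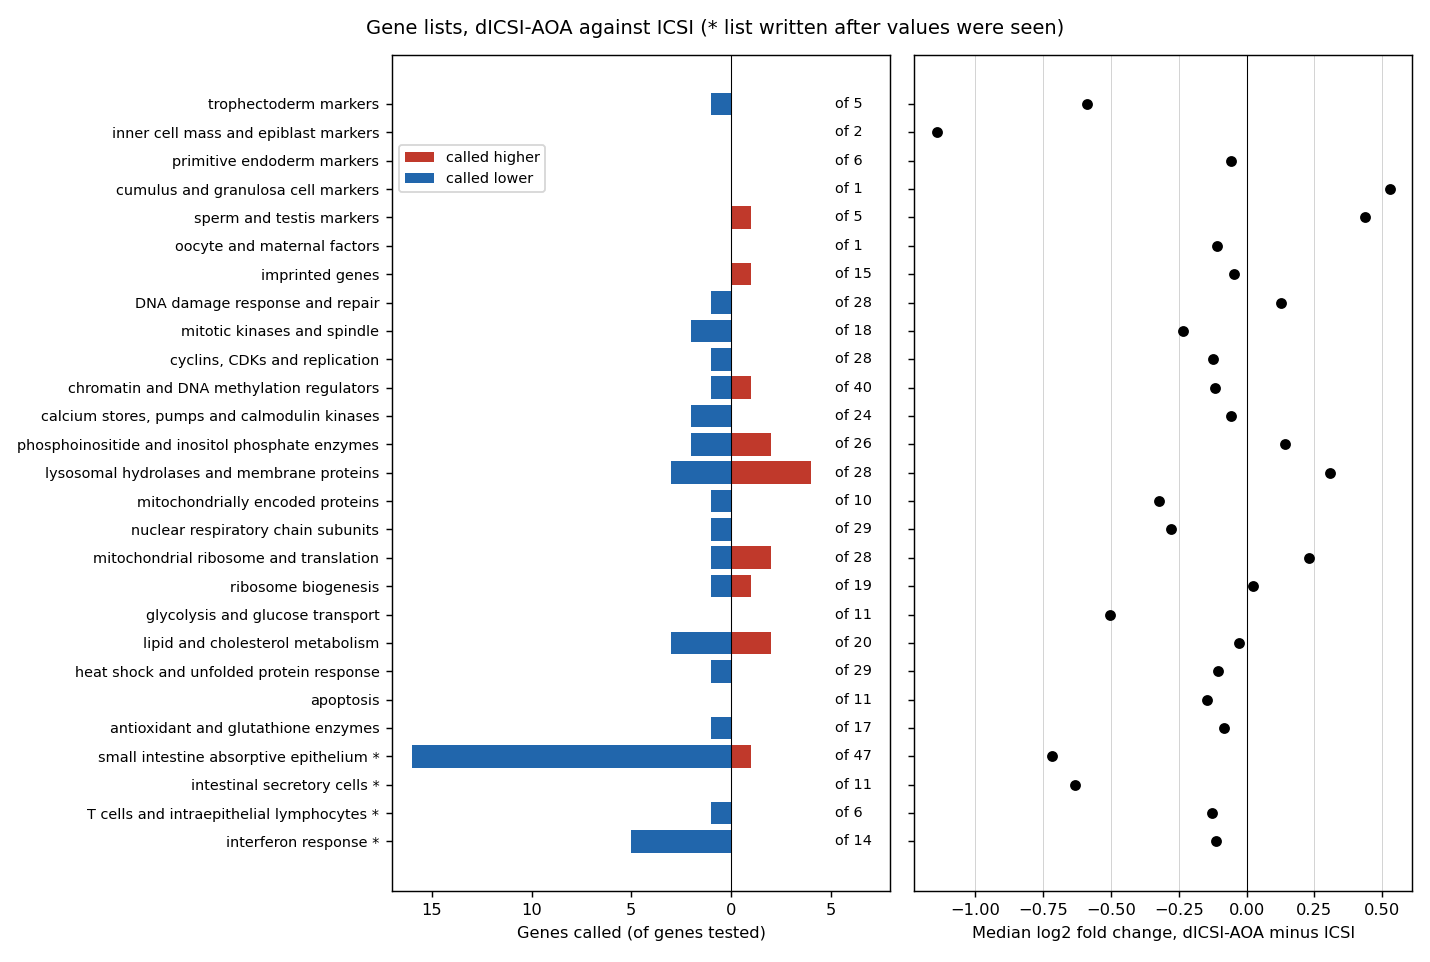
Genes called higher (red, to the right) and lower (blue, to the left) in dICSI-AOA in each gene list, with the number tested at the right of the bars, and the median log2 fold change of the tested members (points, right panel). The small intestine list, marked as written after the values were seen, has 16 of 47 called lower and a median of -0.72, while the 23 other lists without that mark have at most 4 calls in a direction.

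Of the 10 genes with the most fragments over the 6 libraries, Nop9 and Gpr89 were called lower and 8 were not called. The call of Gpr89, like that of Nop9, was lost with total fragments, the authors' factors, limma at either pseudocount, no trend in the dispersion and without ICSI replicate 5. mt-Nd5 had a log2 fold change of -0.12 (SE 0.14), Gm10935 of -0.13 (SE 0.20), Gm20721 of -0.07 (SE 0.13), Ccdc107 of 0.00 (SE 0.15), Cox15 of -0.08 (SE 0.20), Usp37 of -0.01 (SE 0.16), Prepl of -0.14 (SE 0.15) and Hcn3 of -0.35 (SE 0.15). Hcn3 missed the call by its fold change alone.

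Many of these genes run opposite to another gene. Nop9 shares 1136 exon bases with Cideb, a lipid droplet protein of liver and gut, Gpr89 shares 1333 with Pdzk1, a scaffold of brush borders, Prepl 601 with Slc3a1, an amino acid transporter of kidney and gut, Cox15 444 with Entpd7, and Hcn3 711 with Pklr, the pyruvate kinase of liver and gut. Gm20721 shares 1469 with Gnas, Ccdc107 124 with Rmrp and Usp37 134 with Cnot9. Nop9 had 11684 fragments over the 6 libraries and Cideb 145, Gpr89 had 7118 and Pdzk1 1027, and Prepl had 8523 and Slc3a1 229. Pklr had 1 and Hcn3 had 1083 to 1569 in each of the 6 libraries. Gm20721 had 14059 over the 6 libraries and Gnas 26. Rmrp and Cnot9 had no level under these symbols. In each of the other pairs the level assigned to the strand partner was thus the lower one.

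Of the 50 genes with the most fragments over the 9 libraries 36 shared at least 100 exon bases with a gene on the other strand, against 43.4% of all genes tested. The 1870 genes with such an overlap held 62.3% of the fragments of the tested genes and were called at 6.36%, 63 higher and 56 lower. In 1964 genes fewer than 100 exon bases lay in the exons or body of a gene on the other strand. These held 27.0% and were called at 6.67%, 55 higher and 76 lower. The library kit is described as stranded, and how the strand was used in counting is not given in the sources used here, so that the reads of a gene and of its partner cannot be told apart. The part of strand assignment in the calls was not tested.

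Other calls were picked out after their values were seen, those of Ube2n and Pde5a being made by single libraries. Ube2n, a ubiquitin-conjugating enzyme, had 49 fragments in ICSI library 5 and none in the other 8 libraries, and was not called without ICSI replicate 5. Pde5a, a phosphodiesterase of cyclic GMP, was called higher with 68, 119 and 71 fragments against 85, 113 and 345, a difference made by dICSI-AOA library 5. Gab2, an adaptor of growth factor signals, was called higher with 7, 11 and 6 against 10, 35 and 39 (log2 fold change 1.66, SE 0.43), and kept its call whichever library was left out.

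The calls were spread over the genome. Among chromosomes with at least 50 genes tested, the share called ran from 3.05% on chromosome 13 to 10.1% on chromosome 6.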

How the data were processed

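Blastocyst pools of 3 groups with 3 libraries each were sequenced. The authors trimmed reads with cutadapt 1.9.3, aligned them to mm10 with HISAT2 and used Cufflinks and Cuffdiff, per the submitters' processing notes. The library kit, described as stranded, is named differently in the labels and in the methods of the study. The deposited expected counts (estimated counts per gene) were whole fragments times 1 factor per library. In each library 95.7% to 96.2% of the values above 0 came out whole within 0.01 fragment after division by that factor, and all were rounded. The deposited FPKM values, as the authors made them, follow their own scaling and were used for the minimum of 1 and for limma. The deposited fold changes and p-values were not used.

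The recovered fragments of the 4304 genes kept, which hold 96.2% of all fragments, were tested with edgeR 4.0.16 in R 4.3.3 (TMM scaling, quasi-likelihood test, two-sided, a mean per group, all 9 libraries). The design assumed counts of this kind. Standard errors are the absolute log2 fold change over the square root of F, and intervals are 1.96 of these on either side. They cover the spread between libraries. Coordinates and overlaps of at least 100 bases come from GENCODE vM21 (GRCm38), in which 4247 of the 4304 genes were matched. Scripts were checked on simulated data.

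The text names every gene with an adjusted p under 0.05, the 14 with the smallest p in each direction among called genes with at least 30 fragments and no overlap between groups, up to 4 called members of each of 23 lists, and the 10 most abundant genes, with Gusb, Acp2 and the genes said to be picked later as additions. Some genes that met this rule are not reported here. The comparison, the members and the lists were chosen with earlier results of these data known, and 4 further lists were written after the values were seen. Lists are described by counts and medians, with no test. Alternatives were DESeq2 1.42.0, other scalings and filters, limma 3.58.1 on log2 FPKM with 1 or 0.1 added, the 6 libraries alone, no trend in the dispersion and leaving out each library.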

Additional observations from a re-analysis of the deposited data

How the results depend on the processing

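The 284 calls became 133 with DESeq2 (48 higher, 85 lower), 555 with the authors' factors (510 higher, 45 lower), 467 of 12128 genes without the FPKM minimum, 134 of 1800 at a mean FPKM of at least 5, 164 of 1881 at a mean of at least 10 fragments and 434 with limma on log2(FPKM + 1) (90.3% higher). Limma with 0.1 added gave 425 (90.1% higher) and total fragments as the only scaling 299 (176 higher, 123 lower). The median over all genes tested was 0.36 with the authors' factors and 0.28 with limma on log2(FPKM + 1), so the balance of higher and lower calls depended on the scaling. Leaving out 1 library gave 239 to 340 calls. The 1 gene past an adjusted p of 0.05 became 7 with the authors' factors (Gsg2 not among them), 24 without the minimum and 0 at a mean of at least 10 fragments, with limma at either pseudocount and with no trend in the dispersion, and 0 to 16 with 1 library left out (16 without dICSI-AOA replicate 1).

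The 16 small intestine genes called lower became 8 with the authors' factors, 7 of 18 at FPKM 5, 7 of 15 at 10 fragments and 2 with limma at either pseudocount, where 4 were called higher, and 9 to 15 with 1 library left out. The median of the tested genes of that list stayed below 0 in each of these settings. As the list was written with these values known, this is a description and not a test. With limma on log2(FPKM + 1) and log2(FPKM + 0.1), the log2 fold change turned to 0.00121 and 0.00134 for mt-Nd4, 0.00744 and 0.00807 for Ada and 0.00887 and 0.00920 for Gpr89. Of the 28 genes chosen by smallest p, 16 kept their call in every setting that gave a value, 11 lost it with limma at either pseudocount and none reversed. The causes were not tested. No paired analysis was possible because the ICSI and dICSI-AOA libraries share only the replicate number 5. The median standard error was 1.40 for genes with fewer than 10 fragments, and differences of that size were not detectable there.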
